A study of Canis lupus familiaris with 55 samples.

Results

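Normal ovaries and testes of canine embryos were compared at d37 and d39 of gestation. The comparison holds 12 of the 55 libraries of the study, chosen by their labels: 6 XX and 6 XY embryos of the control pedigree, bred from wild type beagle parents outside the model pedigree with XX disorder of sex development (XX DSD) that the study is about. Each sex has 3 embryos of d37, all of 1 litter by the methods of the study, and 3 of d39, all of another litter, so that day and litter cannot be told apart. XX gonads are ovaries without the Y-linked switch gene *SRY*, and XY gonads are testes that carry it. Each library was made from the gonad pair of 1 embryo, so p-values measure the spread between embryos. XX and XY controls of d44 (3 embryos each) and pooled control gonads of d34 (1 library per sex) are set beside them at the end. Values are FPKM, mapped fragments scaled by transcript length and library size, which allow levels of different genes to be compared per length. Differences are means of log2(FPKM + 1) in XX minus XY gonads with their standard error (SE), a scale that understates the change of genes with low levels.

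The mammalian gonad starts as the same bipotential ridge in both sexes. In XY embryos *SRY* switches on *SOX9* in the supporting cells, which become Sertoli cells, enclose the germ cells in cords and secrete anti-Müllerian hormone, while Leydig cells between the cords make androgens. In XX embryos the supporting cells become pre-granulosa cells, in which the R-spondin, WNT and beta-catenin pathway and the transcription factor FOXL2 are active. Each programme is known, mainly from mice, to hold the other down.

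Ovaries and testes separated along the leading axis of variation. The first principal component held 45.6% of the variance of 13714 genes, with XX gonads between −46.6 and −28.5 and XY gonads between 34.4 and 45.1. The second held 13.2% and set apart the XY embryos A1099 (−51.1) and A1095 (48.9) from the other 10 libraries (−12.2 to 9.62). Correlations of log2 values ran from 0.952 to 0.975 among XX gonads, from 0.903 to 0.971 among XY gonads and from 0.867 to 0.924 between the sexes. Relative sequencing depth, with the deepest of these libraries set to 1, was 0.316 to 0.908 (median 0.642) in XX and 0.182 to 1 (median 0.599) in XY gonads (two-sided exact permutation p = 0.634). The labels were checked with the locus named *Xist_exon4*, part of the RNA that coats the inactive X chromosome. It was between 143 and 297 FPKM in XX gonads and between 0.0346 and 8.47 FPKM in XY gonads, where A1099 was the highest. No sample went against its label.

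Of 14114 annotated genes tested, 1157 met the stringent criteria, which asked for means that differed 2-fold or more, for a mean of 4 FPKM or more in the higher sex, and for an adjusted p under 0.05. These were 469 genes higher in XX gonads (3.32%) and 688 lower in XX, that is, higher in XY (4.87%). The ratio of means had a median of 2.88 among genes higher in XX and of 3.09 among genes higher in XY. Ratios of at least 10 were found for 35 genes higher in XX and for 81 higher in XY. In 1064 of the 1157 genes the XX and XY embryos did not overlap. The criteria themselves favour such genes, so this count is no separate evidence of how far the sexes lie apart. By adjusted p alone, 2836 genes were higher in XX and 2930 higher in XY, while the median difference over all tested genes was 0.01. The counts without the XY embryos A1095 and A1099 were 460 and 723, and 1083 of the 1157 genes were called in the same direction without them.

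**Figure D1:**
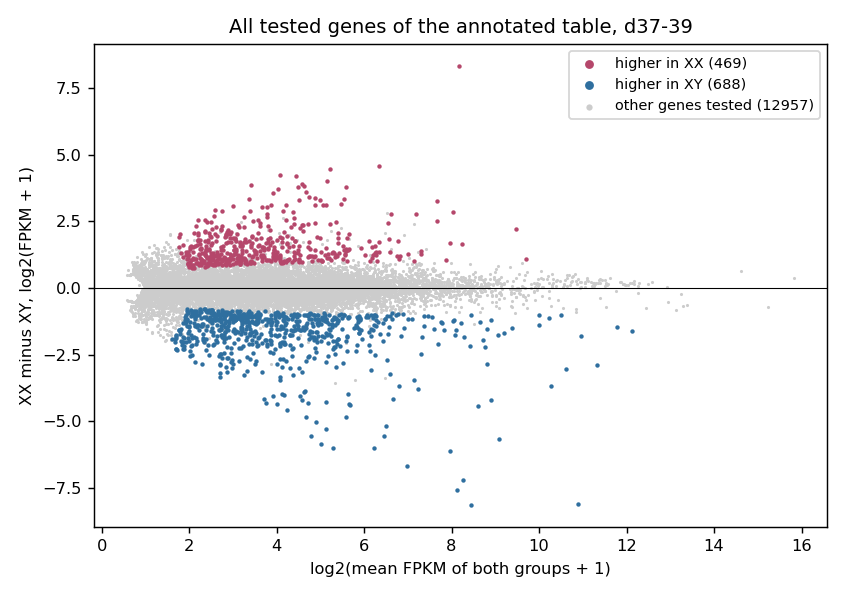
Difference between XX and XY gonads at d37-39 (vertical axis, log2(FPKM + 1), positive where XX is higher) against the mean level of both groups (horizontal axis, log2 of FPKM plus 1) for each of 14114 tested genes. Coloured points are the 469 genes higher in XX and the 688 higher in XY by the stringent criteria, and ratios of at least 10 hold for 35 genes on the XX side and 81 on the XY side.

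The ovarian transcription factor FOXL2, which maintains granulosa cell identity, was clearly separated between the sexes. *FOXL2* (chr23:35145964-35147181, minus strand, CanFam3) lay between 17.9 and 30.4 FPKM (median 24.1) in XX gonads and between 0.37 and 1.09 FPKM (median 0.403) in XY gonads. No XX embryo came near any XY embryo, and the highest XY value was again that of A1099. The means of 23.8 ± 4.2 and 0.55 ± 0.288 FPKM (SD, n = 6 each) were 43.2-fold apart, a difference of 4 ± 0.14 (SE) on the log2 scale (limma, adjusted p = 6.9e-10). The signalling genes upstream and beside it differed less in ratio and more in level. *RSPO1*, the secreted amplifier of WNT signalling, was between 57.6 and 89.3 FPKM (median 68.7) in XX and between 3.44 and 11 FPKM (median 8.10) in XY gonads (3.10 ± 0.21, adjusted p = 3e-07). *WNT4*, the ligand that ovarian development depends on in mice, was between 27.6 and 40.4 FPKM (median 32.3) in XX and between 4 and 8.87 FPKM (median 5.47) in XY gonads (2.34 ± 0.14, adjusted p = 9.3e-08). Both genes thus kept a measurable level in testes, whereas *FOXL2* averaged under 1 FPKM there. For these 3 genes, and for every gene described below whose XX and XY embryos do not overlap, the two-sided exact permutation test on 6 against 6 embryos gave p = 0.00216, the smallest value it allows. Without overlap this value is fixed in advance, so it adds nothing to the statement that the embryos do not overlap.

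Among 13 pre-granulosa genes tested of 15 listed, 9 were higher in XX gonads and 0 higher in XY by adjusted p, with a median difference of 1.24. Over all 21171 loci tested in the same table, 12.7% were higher in XX and 13.8% higher in XY, and the median difference was −0.015. These loci include 7998 without an annotated gene, whereas list members are annotated genes. Of autosomal loci with an annotated gene, 17.3% were higher in XX and 19.1% higher in XY, which is the closer background for the lists. Follistatin, an activin antagonist encoded by *FST*, was between 6.5 and 19.9 FPKM (median 16.2) in XX and between 0.949 and 2.19 FPKM (median 1.89) in XY gonads (2.42 ± 0.24, adjusted p = 7.2e-06). *BMP2*, a bone morphogenetic protein of the ovary, was between 3.46 and 7.10 FPKM (median 5.61) in XX and between 1.32 and 2.07 FPKM (median 1.59) in XY gonads (1.24 ± 0.16, adjusted p = 9.6e-05). The homeobox gene *IRX5* had a wide range in XX gonads, 1.59 to 10.3 FPKM (median 7.00), against 0.103 to 0.372 FPKM (median 0.264) in XY gonads. Its XX and XY embryos still did not overlap (2.36 ± 0.35, adjusted p = 0.00022). *WNT6*, another WNT ligand, averaged 46.2 ± 6.14 FPKM in XX and 15.7 ± 3.31 FPKM in XY gonads (SD, n = 6 each). *CYP19A1*, the aromatase gene that makes estrogens, was low in both, between 1.07 and 2.41 FPKM (median 1.63) in XX and between 0.118 and 0.326 FPKM (median 0.191) in XY gonads (adjusted p = 0.00032). The 4 tested members that did not pass were *RUNX1*, *NR0B1*, *GNG13* and *ESR2*. *LGR5* and *LHX2* had means under 1 FPKM in both sexes and were not tested. Summed over the list, levels were 188 to 267 FPKM in XX and 41.8 to 64.5 FPKM in XY gonads.

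**Figure D2:**
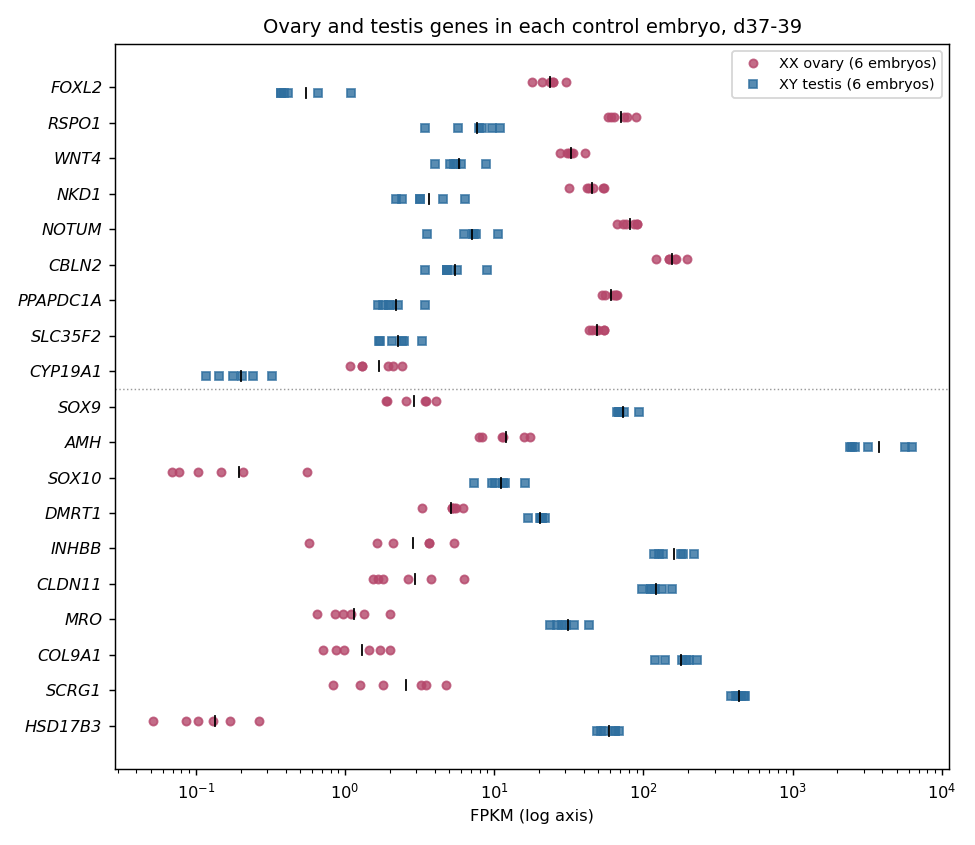
FPKM (log axis) of 19 genes in each embryo of d37-39, with XX ovaries as circles above XY testes as squares and the group means as vertical ticks. The 9 genes above the dotted line are higher in XX and the 10 below it are lower in XX, and in none of the 19 do XX and XY embryos overlap.

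Targets and feedback genes of WNT signalling followed the ligands. Of 10 members tested of 14 listed, 8 were higher in XX gonads and 0 higher in XY, with a median difference of 1.15 beside −0.015 over all loci. The 8 include the secreted WNT antagonist *SFRP1*. Its relative *SFRP2*, which was higher in XY, is not on this list, so the count of 0 depends on the choice of members. *NOTUM*, a secreted enzyme that inactivates WNT proteins, was between 66.3 and 90.9 FPKM (median 81.7) in XX and between 3.57 and 10.6 FPKM (median 7.26) in XY gonads (3.38 ± 0.18, adjusted p = 3e-08). *NKD1*, an inhibitor inside the cell, was between 31.6 and 54.5 FPKM (median 44.8) in XX and between 2.2 and 6.33 FPKM (median 3.19) in XY gonads (3.35 ± 0.20, adjusted p = 8.1e-08). The means of *NOTUM* and *NKD1* were 11.4-fold and 12.4-fold higher in XX. *SP5*, a transcription factor that WNT signals switch on, was between 2.88 and 12.3 FPKM (median 7.48) in XX and between 0.0787 and 0.449 FPKM (median 0.181) in XY gonads, 34.5-fold higher in XX by the means. The general targets moved less, with *AXIN2* at 38.7 ± 4.76 FPKM in XX and 17.7 ± 3.44 FPKM in XY gonads (SD, n = 6 each). The nuclear partners of beta-catenin *LEF1* (61.2 ± 7.22 and 28.0 ± 5.57 FPKM) and *TCF7* (19.4 ± 4.41 and 7.81 ± 1.33 FPKM) were also higher in XX, with no overlap between the sexes.

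Not every gene of the pathway stood on the ovarian side. *SFRP2*, a secreted WNT antagonist, was lower in XX gonads, between 24.9 and 39.4 FPKM (median 30.6), against 76.0 to 144 FPKM (median 108) in XY gonads (−1.73 ± 0.15, adjusted p = 2.6e-06). *SFRP1*, of the same family, was higher in XX, at 85.2 ± 10.3 FPKM against 32.5 ± 6.37 FPKM in XY gonads (SD, n = 6 each). The receptor gene *LRP5* was lower in XX, 15.7 ± 1.78 FPKM against 25 ± 5.04 FPKM (adjusted p = 0.0028), with overlap between the sexes. *CTNNB1*, which encodes beta-catenin itself, did not pass the test, at 238 ± 10.4 FPKM in XX and 277 ± 32.7 FPKM in XY gonads (adjusted p = 0.065). *LRP6*, which encodes a co-receptor of WNT ligands, did not pass either (adjusted p = 0.5). Of the 15 tested ovary pathway genes that the study itself names, 11 were higher in XX and 2 higher in XY, with a median difference of 0.69.

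Over all discovery loci tested, 510 met the stringent criteria as higher in XX (2.41%) and 733 as higher in XY (3.46%), of which 369 and 572 carry a gene symbol. Among those whose XX and XY embryos do not overlap, the 15 with the largest ratio in each direction are described. Their distance between the sexes follows from that choice and is no separate result. *CBLN2*, which encodes a secreted synapse organiser of the cerebellin family, was between 121 and 195 FPKM (median 155) in XX and between 3.46 and 8.89 FPKM (median 4.85) in XY gonads (4.64 ± 0.17, adjusted p = 9.2e-10). With *Xist_exon4* it had the highest level in XX among these 15, above *PPAPDC1A* and *GABRA2*. The lipid phosphatase gene *PPAPDC1A* was between 52.7 and 66.1 FPKM (median 63.6) in XX and between 1.66 and 3.46 FPKM (median 1.98) in XY gonads (4.30 ± 0.12, adjusted p = 1.5e-10). The solute carrier gene *SLC35F2* was between 43 and 54.3 FPKM (median 49.0) in XX and between 1.70 and 3.28 FPKM (median 2.25) in XY gonads (3.95 ± 0.11, adjusted p = 1.8e-10). Both varied little among XX embryos.

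The remaining genes of these 15 belong to varied families. *AQP3*, a water and glycerol channel, averaged 30.8 ± 8.20 FPKM in XX and 0.959 ± 0.478 FPKM in XY gonads (SD, n = 6 each). *GABRA2*, a subunit of the receptor for the transmitter GABA, averaged 53.6 ± 10.9 FPKM in XX and 2.68 ± 1.12 FPKM in XY gonads. *SEMA3E*, a secreted guidance cue of vessels and axons, averaged 34.7 ± 8.20 FPKM in XX and 1.72 ± 0.586 FPKM in XY gonads. *NTM*, a cell adhesion molecule of neurons, was 50.5-fold higher in XX (14.1 ± 4.30 against 0.279 ± 0.269 FPKM). *SALL1*, a zinc finger factor of kidney development, was 22.6-fold higher in XX, and *CALB1*, a calcium-binding protein, 25.7-fold. *TAGAP*, *CALML5* and *IRX5* complete the 15 together with *Xist_exon4*, *FOXL2* and *SP5*. A1099 had the highest level of the 6 XY embryos for each of these 15 genes except *CALML5*. Over 467 loci higher in XX without overlap, A1099 was the highest XY embryo at 124 and the other XY embryos at 22 to 107 each. Without A1099 the difference of *FOXL2* was 4.09, that of *CBLN2* 4.78 and that of *AQP3* 4.13, and 1207 annotated genes met the stringent criteria, 489 higher in XX and 718 higher in XY.

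On the testis side, *SOX9* (chr9:8275049-8280390, plus strand), the transcription factor that directs Sertoli cell fate, was between 1.90 and 4.06 FPKM (median 3.01) in XX gonads and between 66.2 and 92.8 FPKM (median 69.4) in XY gonads. The 6 testes thus held a narrow range, and every ovary lay far under it. The means of 2.90 ± 0.90 and 73.4 ± 9.80 FPKM (SD, n = 6 each) gave −4.28 ± 0.15 on the log2 scale (limma, adjusted p = 6.9e-10), 25.3-fold lower in XX. *AMH*, which encodes the hormone that makes the Müllerian ducts regress, had the largest difference among the named testis genes. It lay between 7.90 and 17.3 FPKM (median 11.4) in XX and between 2419 and 6269 FPKM (median 2898) in XY gonads, and was 314-fold lower in XX (−8.12 ± 0.27, adjusted p = 2.5e-10). Testes also differed among themselves by more than for *SOX9*, since *AMH* was highest in the d39 embryos A1091 and A1094.

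Of 11 Sertoli genes tested of 15 listed, 9 were lower in XX gonads and 0 higher, with a median difference of −3.31. *SOX10*, a relative of *SOX9*, was between 0.0696 and 0.559 FPKM (median 0.125) in XX and between 7.28 and 16 FPKM (median 10.7) in XY gonads (−3.31 ± 0.16, adjusted p = 1.2e-08). *SOX8*, the other relative, averaged under 1 FPKM in both sexes and was not tested. *DMRT1*, a factor that keeps testis identity, was present in both, between 3.27 and 6.19 FPKM (median 5.30) in XX and between 16.9 and 22.0 FPKM (median 20.7) in XY gonads (−1.81 ± 0.11, adjusted p = 1.4e-07). *CLDN11*, a tight junction protein of Sertoli cells, was between 1.55 and 6.25 FPKM (median 2.23) in XX and between 97.6 and 155 FPKM (median 116) in XY gonads. *MRO*, named maestro for its male-biased expression in mouse gonads, averaged 1.15 ± 0.479 FPKM in XX and 31.1 ± 6.86 FPKM in XY gonads (SD, n = 6 each). *FGF9*, the growth factor that promotes Sertoli cell fate in mice, averaged 5.53 ± 0.224 FPKM in XX and 5.52 ± 1.04 FPKM in XY gonads (0.02 ± 0.10, adjusted p = 0.93). *VNN1*, a Sertoli marker of mouse gonads, was likewise at 40.7 ± 10.4 and 40.2 ± 5.27 FPKM in XX and XY gonads (−0.02 ± 0.18, adjusted p = 0.95). For both genes XX and XY embryos overlapped. The XX embryo A1089 lay under all others for *VNN1*, at 20.7 FPKM with the next XX embryo at 41.1 FPKM. *CBLN4* averaged under 1 FPKM in both sexes, and *AARD* was listed at 0 in every library. Of the 5 tested testis pathway genes that the study names, 4 were lower in XX and *FGF9* was the exception, with a median difference of −3.31.

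The subunit genes of inhibin and activin differed between the sexes in the same direction but to different degrees. *INHBB*, the beta B subunit, was between 0.575 and 5.40 FPKM (median 2.87) in XX and between 118 and 218 FPKM (median 157) in XY gonads (−5.49 ± 0.30, adjusted p = 3.5e-08). *INHA*, the alpha subunit that turns activin into inhibin, was between 108 and 320 FPKM (median 171) in XX and between 296 and 836 FPKM (median 515) in XY gonads, with overlap between the sexes (−1.56 ± 0.29, adjusted p = 0.0012). *INHBA*, the beta A subunit, averaged 5.97 FPKM in XX and 20.1 FPKM in XY gonads (−1.61 ± 0.10, adjusted p = 1.3e-07). All 3 subunit genes were lower in XX, while the antagonist *FST* was higher in XX, and the receptor gene *ACVR2A* did not pass the test (0.03 ± 0.07). Of 9 tested genes of the inhibin, activin and BMP list, 4 were higher in XX and 3 higher in XY, with a median difference of 0.03.

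The genes with the largest ratios in favour of the testis reached higher folds than those in favour of the ovary, *Xist_exon4* apart. *SCRG1*, a small secreted protein known from chondrogenesis and scrapie-infected brain, was between 0.835 and 4.79 FPKM (median 2.51) in XX and between 387 and 479 FPKM (median 439) in XY gonads (−7.06 ± 0.24, adjusted p = 6.9e-10). *COL9A1*, a chain of the cartilage collagen IX, was between 0.712 and 2.01 FPKM (median 1.22) in XX and between 120 and 228 FPKM (median 187) in XY gonads (−6.28 ± 0.18, adjusted p = 1.8e-10). *SERPINA5*, a protease inhibitor of the male tract, was between 0.533 and 1.86 FPKM (median 0.944) in XX and between 125 and 242 FPKM (median 187) in XY gonads (−6.47 ± 0.21, adjusted p = 6.5e-10). These genes stayed under 5 FPKM in all 6 ovaries and above 100 FPKM in all 6 testes. They were chosen for large ratios without overlap, so the gap itself is no separate result. *FABP3*, a fatty acid binding protein of heart muscle, was at 14.8 ± 1.98 FPKM in XX and 788 ± 105 FPKM in XY gonads (SD, n = 6 each). *GATM*, the first enzyme of creatine synthesis, was at 7.93 ± 6.19 and 510 ± 72.7 FPKM in XX and XY gonads. Its XX values ranged widely, 2.70 to 18.2 FPKM.

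The X-linked genes *VSIG1* (chrX:81574105-81618345), encoding a junction protein, and *SMPX* (chrX:17520348-17578396), encoding a small muscle protein, had the largest ratios of means among the 15 genes most in favour of the testis. *VSIG1* was between 0.0301 and 0.218 FPKM (median 0.0579) in XX and between 26.1 and 60 FPKM (median 34.4) in XY gonads. *SMPX* was between 0 and 0.388 FPKM (median 0.0153) in XX and between 24.1 and 48.1 FPKM (median 42.4) in XY gonads. Such ratios rest on XX levels near 0 and are less certain than the differences on the log2(FPKM + 1) scale, which were −5.17 ± 0.19 and −5.13 ± 0.18 (adjusted p = 1.1e-09 and 8.6e-10). *DLK1*, an imprinted surface protein of fetal stromal and Leydig cells, varied widely among testes, between 25.1 and 127 FPKM, and stayed under 1 FPKM in every ovary (0.179 to 0.669). *CIDEA*, a lipid droplet protein, averaged 0.674 ± 0.419 FPKM in XX and 55.3 ± 16.8 FPKM in XY gonads. *IGSF23*, *MYBPC3* and *TMEM233* averaged 26.2, 24.5 and 27.6 FPKM in XY gonads and under 1 FPKM in XX. A locus named *TMSB4X* had 0 to 6.63 FPKM in XX and 226 to 493 FPKM in XY gonads, but it is a short locus of CFA26 (28255924 to 28256049), whereas the thymosin gene lies on the X chromosome. It is uncertain from which of several near-identical copies its reads came.

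Leydig cells and the hedgehog signal that they receive from Sertoli cells were examined next. Of 9 Leydig and steroidogenic genes tested of 13 listed, 8 were lower in XX gonads and 0 higher, with a median difference of −2.24. *HSD17B3*, the enzyme that turns androstenedione into testosterone, was between 0.0516 and 0.265 FPKM (median 0.117) in XX and between 49.0 and 68.5 FPKM (median 59.5) in XY gonads (−5.71 ± 0.09, adjusted p = 1.2e-12). It had the lowest adjusted p of the Leydig list, and no ovary reached 1 FPKM. *STAR*, which carries cholesterol into mitochondria, was between 121 and 746 FPKM (median 210) in XX and between 1542 and 3156 FPKM (median 2023) in XY gonads (−3.05 ± 0.39, adjusted p = 7.4e-05). *CYP17A1*, the hydroxylase and lyase of androgen synthesis, was between 192 and 1288 FPKM (median 365) in XX and between 2169 and 4163 FPKM (median 3464) in XY gonads (−2.88 ± 0.39, adjusted p = 0.00011). The means of *STAR* and *CYP17A1* were 6.83-fold and 6.07-fold lower in XX, and those of *HSD17B3* 439-fold. *CYP11A1*, which cleaves the side chain of cholesterol, was at 137 ± 80.6 FPKM in XX and 450 ± 103 FPKM in XY gonads (SD, n = 6 each). *FDX1* and *FDXR*, the electron donors of that enzyme, were 6.35-fold and 2.73-fold lower in XX, and the lipoprotein receptor gene *SCARB1* 4.24-fold. *LHCGR*, the receptor for luteinising hormone, was between 4.02 and 10.9 FPKM (median 5.15) in XX and between 17.9 and 26.3 FPKM (median 20.3) in XY gonads. *CYB5A*, an accessory protein of the lyase reaction, did not differ beyond its spread, at 1442 ± 193 FPKM in XX and 1443 ± 268 FPKM in XY gonads (0.01 ± 0.13, adjusted p = 0.97). In bulk samples such as these, fewer cells of a type and less RNA per cell cannot be told apart.

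Some loci could not be read gene by gene. The locus that holds both *INSL3*, the hormone of testis descent, and *JAK3* was between 19.3 and 120 FPKM in XX and between 410 and 1147 FPKM in XY gonads. The locus of *DHH*, the hedgehog ligand of Sertoli cells, together with *LMBR1L* was between 18.5 and 20.8 FPKM in XX and between 37.6 and 69.6 FPKM in XY gonads. Of 7 other hedgehog genes tested, 3 were lower in XX and 1 higher, with a median difference of −0.21. *PTCH1*, the hedgehog receptor and a target of the signal, was between 5.03 and 9.71 FPKM (median 5.98) in XX and between 16.8 and 21.7 FPKM (median 18.3) in XY gonads (−1.40 ± 0.13, adjusted p = 6.1e-06). The target *GLI1* was at 5.10 ± 0.657 FPKM in XX and 10.3 ± 4.21 FPKM in XY gonads, with overlap (adjusted p = 0.015). *SMO*, which transduces the signal, was the member higher in XX (0.38 ± 0.10, adjusted p = 0.01).

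Among XX embryos the steroidogenic genes were not uniform. *STAR* had 231, 462 and 746 FPKM in the XX embryos A1097, A1098 and A1101 of d37, and 121, 143 and 188 FPKM in those of d39. *CYP17A1* had 406, 809 and 1288 FPKM in the same d37 embryos and 192, 324 and 310 FPKM at d39. A1101, with the highest values of both, was also the highest XX embryo at 331 of the 640 loci that were lower in XX without overlap, whereas the other XX embryos were highest at 32 to 100 each. *SOX9* did not share that pattern, with its lowest XX value in A1101 (1.90 FPKM). On the ovarian side *FST* had 15.3, 10 and 6.5 FPKM, *IRX5* 4.30, 2.72 and 1.59 FPKM and *SP5* 6.07, 3.83 and 2.88 FPKM in A1097, A1098 and A1101. At d39 these genes lay at 17.0 to 19.9 FPKM, 9.69 to 10.3 FPKM and 8.88 to 12.3 FPKM. These 3 genes were chosen after their values were seen, and each was lowest in the embryo with the highest *STAR*. That embryo was also the lowest XX embryo for *FOXL2* (17.9 FPKM), *BMP2* (3.46 FPKM), *AQP3* (23.0 FPKM), *AXIN2* (30.2 FPKM) and *BNC1* (11.6 FPKM). Other genes higher in XX were not lowest there. *RSPO1*, *CYP19A1* and *CALB1* were lowest in A1098 (57.6, 1.07 and 2.23 FPKM), *CBLN2* in A1086 (121 FPKM), and *CALML5* was highest in A1101 (38.1 FPKM). The change in the sex difference between d39 and d37 did not pass for any of them (adjusted p = 0.36 for *STAR*, 0.33 for *CYP17A1*, 0.44 for *FST*, 0.19 for *IRX5* and 0.33 for *SP5*).

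**Figure D3:**
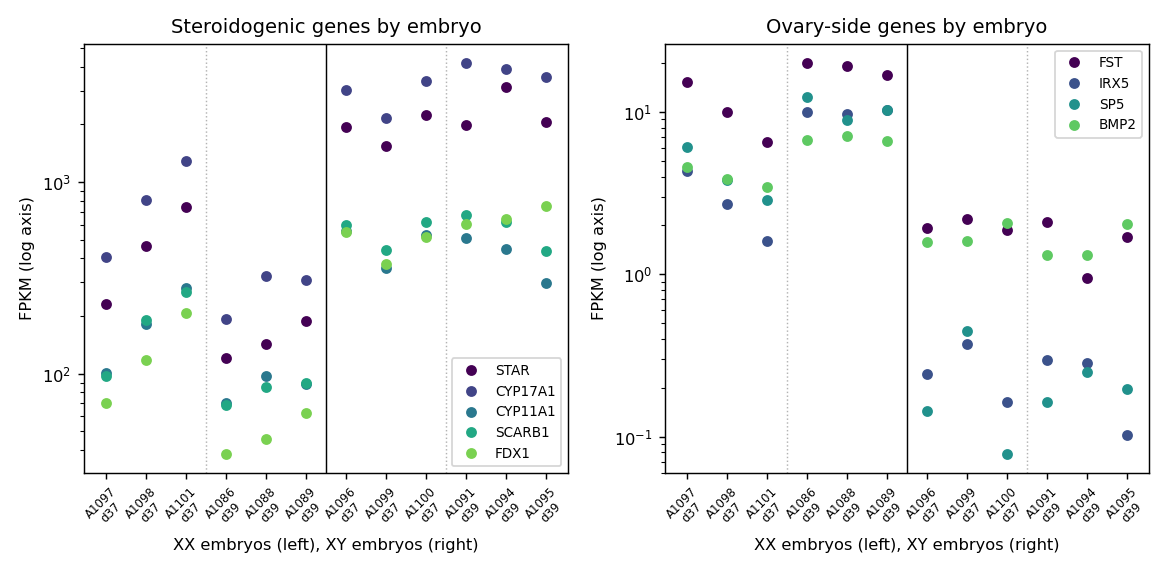
FPKM (log axis) of 5 steroidogenic genes (left) and 4 genes of the ovarian side (right) in each embryo, with the 6 XX embryos left of the solid line and the 6 XY embryos right of it, and d37 before d39 within each sex. *STAR* spans 121 to 746 FPKM among XX embryos and *FST* 6.5 to 19.9 FPKM. Among XX embryos A1101 is at the top of the steroidogenic genes and at the bottom of *FST*, *IRX5*, *SP5* and *BMP2*.

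Genes of the bipotential gonad were expressed on both sides. Of 10 tested, 5 were higher in XX and 3 higher in XY, with a median difference of 0.51. *WT1*, needed to form the gonad, was between 56.9 and 78.6 FPKM (median 72.3) in XX and between 39.6 and 42.3 FPKM (median 41) in XY gonads (0.76 ± 0.08, adjusted p = 9.9e-06). *EMX2* had 60.4 to 88.9 FPKM in XX and 27.9 to 39.8 FPKM in XY gonads (1.20 ± 0.11, adjusted p = 5e-06), and *LHX9* 45.6 to 79.6 FPKM and 23.6 to 47.7 FPKM with overlap (adjusted p = 0.0015). Conversely *GATA4* was lower in XX, 50 to 57.2 FPKM against 69.7 to 88.0 FPKM in XY gonads (−0.57 ± 0.07, adjusted p = 5.4e-05). *NR5A1*, the nuclear receptor that drives steroidogenic genes, had 56.0 to 63.5 FPKM in XX and 59.9 to 99.9 FPKM in XY gonads (−0.61 ± 0.11, adjusted p = 0.00076). The overlap came from the XY embryo A1095, at 59.9 FPKM, since the other testes were at 93.8 FPKM or more. *NR0B1*, an X-linked repressor of that receptor, did not differ beyond its spread (0.10 ± 0.12, adjusted p = 0.56). Apart from *EMX2* and *SIX4*, ratios of means in this group were under 2.

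Retinoic acid, which starts meiosis in fetal ovaries of mice, is made by ALDH1A enzymes and removed by CYP26 enzymes. Of 9 tested genes, 6 were higher in XX and 3 higher in XY, with a median difference of 0.62. *CYP26B1* was between 3.19 and 5.31 FPKM (median 4.6) in XX and between 11.7 and 35.2 FPKM (median 19.1) in XY gonads (−1.98 ± 0.25, adjusted p = 6.5e-05). *ALDH1A1* was between 123 and 140 FPKM (median 133) in XX and between 44.1 and 63.9 FPKM (median 59.5) in XY gonads (1.24 ± 0.09, adjusted p = 7.7e-07). *ALDH1A1* and *CYP26B1* thus leaned to opposite sides, but the genes of synthesis did not share a direction. *ALDH1A2* was lower in XX (−0.43 ± 0.12, adjusted p = 0.021). *ALDH1A3* averaged under 1 FPKM in both sexes and was not tested, and its values were lower in XX without overlap. For breakdown, *CYP26B1* was the only CYP26 gene tested. The binding protein gene *CRABP2* (168 ± 16.3 and 78.7 ± 11 FPKM in XX and XY gonads) was higher in XX like *ALDH1A1*, as was the receptor gene *RARG*.

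Basement membranes surround the testis cords. Of 9 tested genes, 6 were lower in XX and 2 higher, with a median difference of −0.49. *LAMA1*, a laminin chain, was between 26.2 and 34.1 FPKM (median 29.9) in XX and between 81.5 and 116 FPKM (median 97.5) in XY gonads (−1.67 ± 0.09, adjusted p = 3.9e-08). *LAMA5*, another alpha chain, went the other way, with 15.4 to 26.7 FPKM in XX and 6.14 to 14.3 FPKM in XY gonads (0.92 ± 0.20, adjusted p = 0.0034). The same split held for the linker proteins nidogen. *NID1* had 22.0 to 27.8 FPKM in XX and 46.0 to 77.9 FPKM in XY gonads (−1.24 ± 0.11), and *NID2* had 59.7 to 79.2 FPKM in XX and 22.1 to 48.3 FPKM in XY gonads (0.96 ± 0.15). *LAMA5* and *NID2* were the members higher in XX, and no embryo of the other sex overlapped for any of these 4 genes.

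The germ cell markers that could be read were mostly low in both sexes. Of 17 listed genes 13 had a locus of their own, and 7 of these reached the filter. Among the 7, 3 were higher in XX, 1 was lower in XX and the median difference was 0.52. *DAZL*, *POU5F1* and *SALL4* had no locus under their names, so their levels are not known. *DND1* shared a locus with *HARS* and was not counted. *LIN28A*, of primordial germ cells, was at 9.60 ± 1.65 FPKM in XX and 4.96 ± 3.08 FPKM in XY gonads (adjusted p = 0.013), and *MAEL*, of the piRNA pathway, at 3.83 ± 1.09 and 1.72 ± 0.70 FPKM (adjusted p = 0.0059). Both overlapped between the sexes. *KIT*, a receptor of germ cells that other cell types also carry, was lower in XX, 6.72 to 10.6 FPKM against 20.1 to 28.6 FPKM in XY gonads (−1.52 ± 0.11, adjusted p = 6.2e-07). *DDX4* averaged under 1 FPKM in both sexes, and *NANOG* was listed at 0 in all 12 libraries. Among meiosis genes 2 were tested and 0 passed, and *STRA8*, which starts meiosis, averaged under 1 FPKM in both sexes. The summed germ cell markers were 33.3 to 43 FPKM in XX and 34.8 to 60.9 FPKM in XY gonads (two-sided exact permutation p = 0.152). *KIT* was a large part of the XY sums and ran against the 3 genes higher in XX, so the sums do not stand for germ cells alone.

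All 12 proliferation genes tested were higher in XX gonads, with a median difference of 0.64. *RRM2*, of nucleotide synthesis, was between 39.2 and 47.0 FPKM (median 43.1) in XX and between 16.7 and 22.6 FPKM (median 21.0) in XY gonads (1.05 ± 0.08, adjusted p = 7.7e-07). It had the largest difference among members with a locus of their own, with no overlap between the sexes. *TOP2A*, of chromosome separation, had 89.9 to 104 FPKM in XX and 39.7 to 61.5 FPKM in XY gonads (0.83 ± 0.10), *MKI67* 22.9 to 34.5 FPKM and 13.3 to 19.5 FPKM (0.85 ± 0.12), and *PCNA* 163 to 183 FPKM and 96.1 to 126 FPKM (0.63 ± 0.08). Immediate early genes, which respond to signals and to handling of tissue, leaned the other way: of 8 tested, 5 were lower in XX and 0 higher, with a median of −0.65. *JUN* had 30.1 to 40.5 FPKM in XX and 57.0 to 105 FPKM in XY gonads (−1.07 ± 0.15). Their summed level was 63.3 to 77.1 FPKM in XX and 101 to 162 FPKM in XY gonads, and their part in the other differences was not tested.

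Markers of other cell types in the gonad are set beside the autosomal loci with an annotated gene, of which 17.3% were higher in XX and 19.1% lower. With so few genes tested, the endothelial and interstitial counts below cannot be told apart from these shares. Of 9 macrophage genes tested of 13 listed, 6 were lower in XX and 0 higher, with a median difference of −0.64 and a summed level of 28.1 to 39 FPKM in XX and 43.4 to 70.0 FPKM in XY gonads. *TYROBP*, a signalling adaptor of myeloid cells, was between 3.70 and 6.19 FPKM (median 4.75) in XX and between 6.82 and 16.8 FPKM (median 9.05) in XY gonads (−0.85 ± 0.18, adjusted p = 0.0033). Among 10 endothelial genes 2 were higher in XX and 3 lower, and the summed level did not differ beyond its spread (156 to 192 FPKM in XX, 122 to 207 FPKM in XY gonads, two-sided exact permutation p = 0.63). The vascular receptor genes went in different directions. *KDR* and *TEK* were higher in XX (0.82 ± 0.11 and 0.92 ± 0.15, with 43.9 and 38 FPKM in XX against 24.7 and 19.2 FPKM in XY gonads), and *FLT1* was lower in XX (−0.70 ± 0.13). Of 8 interstitial genes tested, 1 was higher in XX (*NR2F2*, 91.7 to 112 FPKM in XX and 62.8 to 80.4 FPKM in XY gonads) and 3 lower.

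The epithelium that covers the gonad had 3 of 8 listed markers tested, of which 2 were higher in XX and 0 lower. *KRT19*, a keratin, was between 26.4 and 41 FPKM (median 38.2) in XX and between 6.47 and 14.2 FPKM (median 9.80) in XY gonads (1.84 ± 0.17, adjusted p = 4.9e-06). *BNC1*, a zinc finger factor of epithelia, had 11.6 to 17.3 FPKM in XX and 4.05 to 6.03 FPKM in XY gonads (1.39 ± 0.11). A locus with *CDH1*, *CDH3* and *ZFP90* had 143 to 170 FPKM in XX and 39.9 to 49.6 FPKM in XY gonads and could not be divided among the 3 genes. The summed epithelial markers were 45.9 to 67.4 FPKM in XX and 16 to 27.7 FPKM in XY gonads, and their part in the genes higher in XX was not tested.

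Markers of cells from outside the gonad were examined as well. The mesonephros and kidney markers summed to 8.18 to 13.6 FPKM in XX and 8.69 to 10.7 FPKM in XY gonads (two-sided exact permutation p = 0.0736), with *PAX2* listed at 0 in all 6 XY libraries and under 0.06 FPKM in XX. The erythroid markers summed to 27.8 to 72.0 FPKM in XX and 34 to 64.2 FPKM in XY gonads (p = 0.288 by the same exact test). Of 7 tested, 1 passed, as lower in XX, beside 19.1% of autosomal loci with an annotated gene. Skeletal muscle markers summed to 2.76 to 5.34 FPKM in XX and 3.41 to 10.1 FPKM in XY gonads (exact p = 0.0779), with 0 of 2 passing. The adrenal markers summed to 50.9 to 66.1 FPKM in XX and 38.9 to 86.0 FPKM in XY gonads (exact p = 0.701), nearly all of it *CHGA*, a protein of secretory granules, at 59.2 FPKM in XX and 55.1 FPKM in XY gonads (adjusted p = 0.53). The other tested adrenal markers passed at low levels. *TH*, of catecholamine synthesis, averaged 0.261 FPKM in XX and 1.02 FPKM in XY gonads (adjusted p = 0.036). It lost the call when any 1 XX embryo other than A1097 was left out (adjusted p = 0.059 to 0.071). *MC2R*, the receptor for adrenocorticotropin, averaged 0.223 FPKM in XX and 2.47 FPKM in XY gonads. *APOA1* was the liver marker that passed, at 5.07 to 12.5 FPKM in XX and 28.4 to 86.4 FPKM in XY gonads (−2.21 ± 0.30, adjusted p = 0.00012), whereas albumin, encoded by *ALB*, did not (−0.02 ± 0.34, adjusted p = 0.98). *TTR* and *FGB* averaged under 1 FPKM in both sexes.

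**Figure D4:**
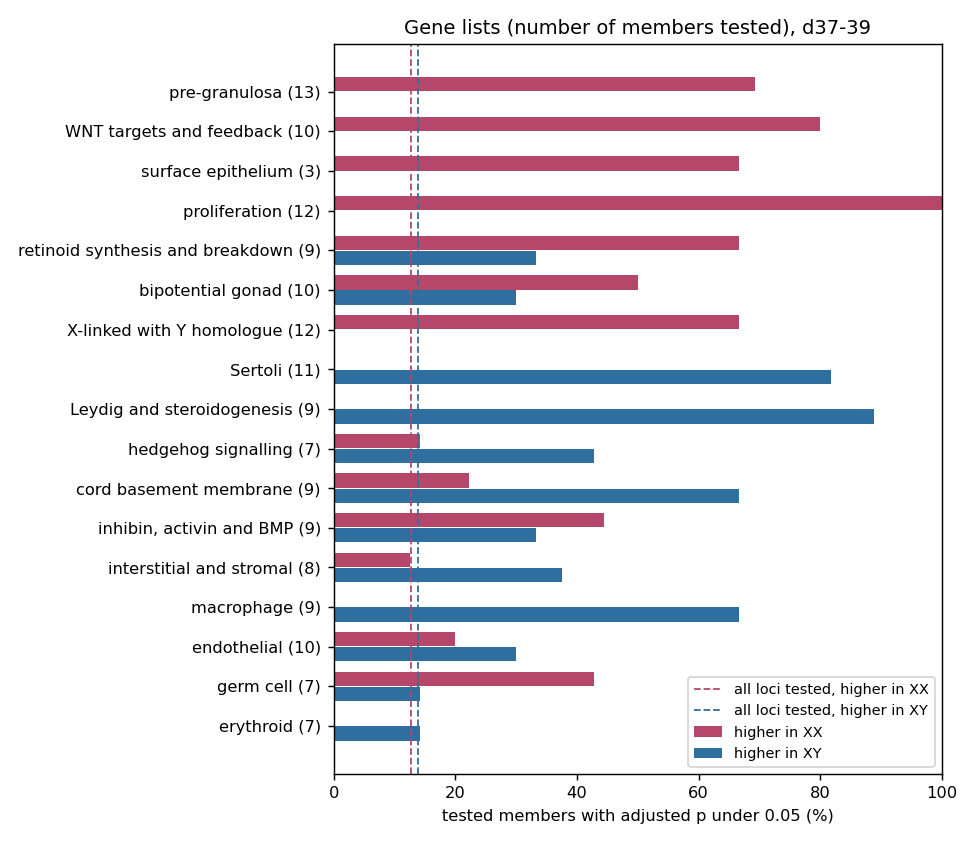
Share of tested members of each gene list with an adjusted p under 0.05 (horizontal axis, percent), higher in XX or higher in XY, with the number of members tested in parentheses. Dashed lines mark the shares over all 21171 loci, 12.7% higher in XX and 13.8% higher in XY. Of these loci 7998 hold no annotated gene, and the shares over autosomal loci with an annotated gene were larger, 17.3% and 19.1%. The pre-granulosa, WNT feedback, surface epithelium, proliferation and X-linked lists have a bar for higher in XX alone.

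X-linked genes with a partner on the Y chromosome often escape X inactivation and so can differ with the number of X chromosomes. Of 12 tested, 8 were higher in XX and 0 lower, with a median difference of 0.43. *KDM6A*, a histone demethylase gene, was between 7.42 and 8.63 FPKM (median 8.37) in XX and between 4.5 and 5.75 FPKM (median 5.16) in XY gonads (0.58 ± 0.06, adjusted p = 2.1e-05). *DDX3X*, *RBMX*, *TXLNG*, *BCOR* and *EIF1AX* were likewise higher in XX (0.46 to 0.72). *ZFX* and *HCFC1* passed narrowly (adjusted p = 0.03 and 0.027) and lost the call when single embryos were left out (adjusted p up to 0.07 without the XX embryo A1097 for *ZFX* and up to 0.065 without the XX embryo A1089 for *HCFC1*), and *KDM5C*, *UBA1*, *OFD1* and *CUL4B* did not pass. Over the whole X chromosome, 520 loci with an annotated gene were tested, of which 20.8% were higher in XX and 22.9% lower by adjusted p. Of 12643 such autosomal loci, 17.3% were higher in XX and 19.1% lower. By the stringent criteria 3.65% of X-linked loci were higher in XX and 8.08% lower, beside 3.21% and 4.71% of autosomal loci. The median difference on the X chromosome was 0.01.

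The sex difference was next compared between days within this period. Among 14406 annotated genes, 8 (0.0555%) had a sex difference that changed between d37 and d39 by adjusted p, with 1961 at an unadjusted p under 0.05. Leaving out single embryos gave 1 to 30, with 30 without the XX embryo A1097, 29 without the XY embryo A1095, 27 without the XY embryo A1100 and 1 without the XX embryo A1098 or A1089. Among 23702 discovery loci there was 1 (0.00422%), ENSCAFG00000006595 without a symbol (2.93, adjusted p = 0.025), with 2177 at an unadjusted p under 0.05. No named gene passed. *INHBB* had a sex difference of −6.36 at d39 and of −4.62 at d37 (adjusted p for the change = 0.19) and *GATM* of −6.98 and −5.25 (0.19). Each day is 1 litter, with 3 embryos of each sex.

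Between d37-39 and d44 the sex difference changed for 157 of 14401 annotated genes (1.09%) and for 78 of 23250 loci (0.335%). By the methods of the study all d44 embryos came from the same litter. Age and litter therefore cannot be told apart in any of these changes. *FOXL2* had a sex difference of 5.35 at d44 and of 4 at d37-39 (change 1.36, adjusted p = 0.015). It averaged 48.5 ± 1.49 FPKM in XX gonads of d44 (SD, n = 3) against 0.211 ± 0.067 FPKM in XY gonads of d44. *HSD17B3* moved towards a smaller difference, −4.55 at d44 and −5.71 at d37-39 (change 1.17, adjusted p = 0.0086), with 25 ± 3.91 FPKM in the testes of d44 and 0.103 FPKM in the ovaries. *ALDH1A1* changed by 0.80 and reached 228 ± 4.28 FPKM in XX gonads of d44 against 55.0 ± 5.90 FPKM in XY. *KRT19* changed by −1.54, with 14 ± 1.51 FPKM in XX and 11.3 ± 2.61 FPKM in XY gonads of d44. *ESR2*, an estrogen receptor gene, had no called difference at d37-39 (−0.19, adjusted p = 0.16, and 0.05 with day, that is litter, as a factor) and changed by 1.09 (9.42 ± 0.175 FPKM in XX and 4.63 ± 0.665 FPKM in XY gonads of d44). *FAM65B* (1.46), *AIF1L* (−1.51), *SLC52A3* (1.58) and *IGSF23* (1.81) also passed. *AMH*, *SOX9*, *RSPO1*, *WNT4* and *STAR* did not (adjusted p = 0.26, 0.23, 0.25, 0.92 and 0.28). The count of 157 depends strongly on single libraries: it was 892 without the XY embryo A1095, 249 without the XY embryo A1091, and 32, 41 and 57 without the XX embryos A1110, A1104 and A1107 of d44.

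The pooled gonads of d34 are 1 library per sex and allow no test. *RSPO1* had 47.7 FPKM in the XX pool and 42.6 FPKM in the XY pool, and *WNT4* 24.2 and 29.5 FPKM, so that the sexes were close for both. *SOX9* had 2.81 FPKM in the XX pool and 56.0 FPKM in the XY pool, and *AMH* had 19.4 FPKM in the XX pool and 850 FPKM in the XY pool. *FOXL2* had 6.95 FPKM in the XX pool and 2.68 FPKM in the XY pool. *STAR* had 74.0 and 130 FPKM, and *HSD17B3* 0.273 and 4.94 FPKM, in the XX and XY pools. In these pools the Sertoli genes *SOX9* and *AMH* were far apart while the WNT genes were close.

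**Figure D5:**
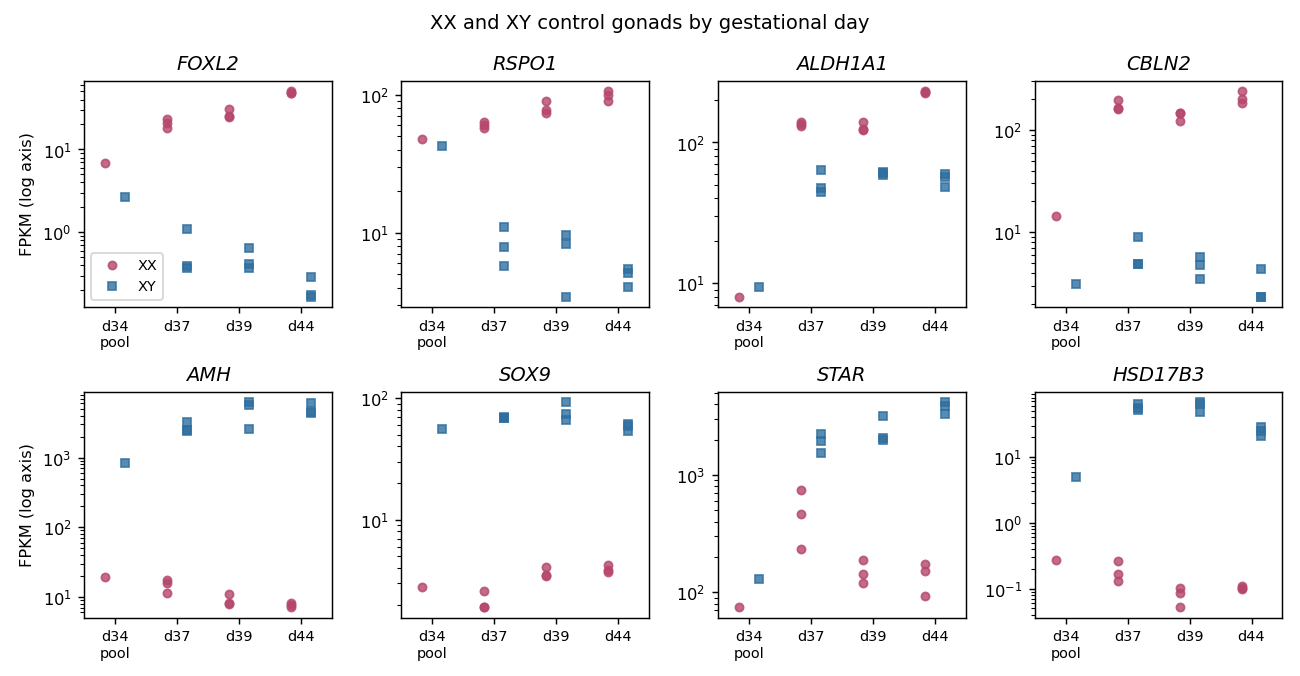
FPKM (log axis) of 8 genes in XX (circles) and XY (squares) control gonads at d34 (1 pool per sex), d37, d39 and d44 (3 embryos per sex and day). *RSPO1* has 47.7 FPKM in the XX and 42.6 FPKM in the XY pool and separates by d37, whereas *SOX9* and *AMH* are apart at every day.

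Loci without an annotated gene also differed between the sexes. Of 7998 tested, 85 were higher in XX and 95 lower by the stringent criteria, and those named here were chosen after their values were seen. A locus of CFA23 on the plus strand (35141639 to 35149656), which overlaps *FOXL2* on the minus strand, averaged 22.2 FPKM in XX and 0.431 FPKM in XY gonads. A locus that overlaps *IRX5* averaged 47.2 FPKM in XX and 2.23 FPKM in XY gonads. The libraries do not mark the strand, so reads of such loci cannot be told apart from those of the gene opposite. A locus of CFA19 (39147483 to 39162046) that overlaps no named locus averaged 23.0 FPKM in XX and 0.370 FPKM in XY gonads (4.16 ± 0.18). On the XY side, 3 loci of CFA20 between 56782444 and 56789076 averaged 1.48, 2.56 and 2.56 FPKM in XX and 598, 900 and 1270 FPKM in XY gonads. They lie within the span of the locus of *SF3A2*, a splicing factor gene, which itself averaged 43.9 FPKM in XX and 859 FPKM in XY gonads. In the RefSeq list *AMH* is the neighbour of *SF3A2*, so the value of that locus cannot be read as a change of *SF3A2*.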

How the data were processed

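Gene expression was measured by RNA-seq in gonads of canine embryos. Of 55 libraries 12 form the main comparison, with 6 of d44 and 2 pools of d34 beside them. The authors deposited FPKM values, made from single-end reads of unstranded poly(A) libraries. Reads were trimmed with cutadapt (the submitters' notes give version 1.5, the methods a different one) and mapped to CanFam3 with TopHat2 2.0.13, and Cuffnorm of Cufflinks 2.2.1 scaled the values. They cover 24581 annotated genes and 58781 loci of a guided assembly (discovery loci). Annotated genes lie in 23459 of these loci, and 14646 carry a single gene name. Counts over all genes were taken from the annotated genes, and single genes were read from the discovery loci, except *AMH* and *NR5A1*, read from the annotated genes. For 18 genes found in both, differences had the same sign in 18 and were at most 0.24 apart. FPKM holds no read numbers, so relative depth was taken from the steps of values up to 0.15 FPKM. A gene listed at 0 may be a failed estimate, since *HSPA8*, which every cell uses, was listed at 0 throughout. Columns of no sample numbered 0.

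Differences were fitted on log2(FPKM + 1) with limma 3.58.1 (moderated, trended variance, R 4.3.3, with version 1.17.8 of data.table). Tests were two-sided, and p-values were adjusted by Benjamini-Hochberg among genes that averaged 1 FPKM or more in XX or in XY gonads. Stringent calls asked in addition for means 2-fold apart and for 4 FPKM in the higher sex. Changes of the sex difference were interaction terms over 12 and 18 libraries. Summed lists, depth and single genes were tested by exact permutation (924 splits). The procedure was tested on simulated data. Lists are described by counts and medians of members that have a locus of their own. The members and lists were chosen with earlier results of these data known. Named genes are the pathway genes of the study, the 15 largest ratios in each direction without overlap (0.1 FPKM added to each mean), the pre-granulosa, Sertoli, Leydig and hedgehog genes, up to 4 members of other lists with the lowest adjusted p, up to 6 genes per interaction, and *Xist_exon4* with the X-linked genes that have Y homologues. Others were named after their values were seen. Results were recomputed with pseudocounts of 0.1 and 0.5 FPKM, other low-value filters, median and quantile scaling, another fold and level threshold, day as a factor, either day alone, no variance trend, a fit shared with d44, the discovery loci, and each library left out in turn. RefSeq names come from the assembly UU_Cfam_GSD_1.0, of which no coordinates were used. The remaining libraries were not used here. Some genes are not reported here.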

Additional observations from a re-analysis of the deposited data

Results flagged for a closer look

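Single embryos that stood far from the other 5 of their sex were looked for in 270 groups of 6 values, where the gap to the nearest embryo exceeded Dixon's critical share of the range in 27. That critical share is set for about 1 in 20 groups of independent, normally distributed values. FPKM of genes from the same libraries need not be so, and some genes were named after their values were seen. The 27 therefore cannot be read as an excess over chance. The XY embryo A1095 accounted for 8 of them, with high values of *CUL4B* (45 FPKM, next 29.2), *EIF1AX* (40.5 FPKM, next 25.4), *SOX9* (92.8 FPKM, next 73.7) and *ZFX* (10.2 FPKM, next 8.04). Its low values were those of *NR5A1* (59.9 FPKM, next 93.8), *SMO* (29.1 FPKM, next 40.5), *TCF7* (5.3 FPKM, next 7.9) and the locus of *DHH* and *LMBR1L* (37.6 FPKM, next 59).

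The XY embryo A1099 had 5, all high: *Xist_exon4* (8.47 FPKM, next 0.072), *AQP3* (1.87 FPKM, next 1), *PPAPDC1A* (3.46 FPKM, next 2.28), *TAGAP* (1.77 FPKM, next 0.971) and *FGB* (0.161 FPKM, next 0.0157). The first 4 of these genes were higher in XX gonads. Among the other XY embryos, A1091 had a low value of *DMRT1* (17 FPKM, next 20.3) and high values of the germ cell genes *LIN28A* (10.9 FPKM, next 5.01) and *TFAP2C* (6.16 FPKM, next 2.5). A1100, the shallowest library, had a low value at the *TMSB4X* locus (226 FPKM, next 414) and high values of *NID1* (77.9 FPKM, next 57.8) and *TTR* (0.371 FPKM, next 0.115).

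Among XX embryos, A1101 had high values of *FDXR* (107 FPKM, next 74.9) and *VSIG1* (0.218 FPKM, next 0.0881), both lower in XX than in XY gonads. A1098 had a low value of *DMRT1* (3.27 FPKM, next 5.22) and a high one of *SMPX* (0.388 FPKM, next 0.0565). A1086 had a high value of *SOX10* (0.559 FPKM, next 0.207). A1089 had a high value of *SMO* (57.9 FPKM, next 52.2) and a low one of *VNN1* (20.7 FPKM, next 41.1), and A1097 a high value of *FGB* (0.147 FPKM, next 0.0329).

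The sex difference on the log2 scale differed between d44 and d37-39 by the interaction test for 9 named genes. All d44 embryos came from the same litter, so age and litter cannot be told apart here. It was more in favour of XX at d44 for *FAM65B* (1.46), *HSD17B3* (1.17), *ESR2* (1.09), *SLC52A3* (1.58), *FOXL2* (1.36), *IGSF23* (1.81) and *ALDH1A1* (0.8), and less for *AIF1L* (−1.51) and *KRT19* (−1.54).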

How the results depend on the processing

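The count of 1157 stringent genes stayed within 1.5 times under every alternative, between 989 (d37 alone) and 1668 (group means of at least 1 FPKM), with 1417 at d39 alone and 1137 to 1239 when single embryos were left out. The share higher in XX stayed between 38.9% and 43.5%. The 8 genes with a change between d37 and d39 became 5 with a pseudocount of 0.1 FPKM, 5 without a filter, 13 without trend and 1 in the discovery table, an alternative chosen after seeing the data. Leaving out single embryos gave 1 to 30, the highest without the XX embryo A1097 (30), the XY embryo A1095 (29) and the XY embryo A1100 (27). The 157 genes with a change between d37-39 and d44 became 23 with d39 alone as the younger group, 78 in the discovery table and 1010 without A1095 and A1099 together, also chosen after seeing the data. Leaving out single embryos gave 32 to 892, with 102 without the XX embryo A1097 and 47 without the XY embryo A1106 of d44.

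Over 157 tested genes and 24 alternatives each, 3631 values kept their direction and side of the threshold, 79 lost the call, 28 gained it and 0 reversed. Most losses came with 1 day alone, where 3 embryos stood against 3, among them *NR5A1* (adjusted p = 0.098), *SMO* (0.14) and *LIN28A* (0.19) at d39, and *CYP11A1* (0.063), *CYP19A1* (0.14) and *FLT1* (0.18) at d37. Leaving out single embryos ended calls of 6 genes, *HCFC1*, *ZFX*, *TFAP2C*, *TH*, *TIE1* and *ZFPM2*, with adjusted p between 0.05 and 0.075. *CTNNB1* passed without A1099 and in 2 other fits (0.023 to 0.034), and *LRP6* at d37 alone and without A1095 (0.034 and 0.038). FPKM carries no counts, so counting error cannot be given, and values under 1 FPKM are the least certain. With day, that is litter, as a factor, which pairs the sexes by litter, 1157 genes were stringent, and 2875 were higher in XX and 2976 higher in XY by adjusted p. Among the named genes *ESR2*, *GAS1* and *OFD1* gained the call there (adjusted p = 0.05, 0.0016 and 0.037).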

Other observations

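Gene groups chosen after the leading genes had been seen are described here as values. The counts of each group stand beside 12.7% of all loci tested that were higher in XX and 13.8% higher in XY. Among autosomal loci with an annotated gene these shares were 17.3% and 19.1%. Genes known from glial and Schwann cells were mostly lower in XX gonads, 5 of 7 tested, with 1 higher and a median difference of −2.86 beside −0.015 over all loci. *ERBB3*, a neuregulin receptor, averaged 2.73 FPKM in XX and 71.6 FPKM in XY gonads (−4.29 ± 0.11, limma, adjusted p = 7e-11). The gap junction gene *GJB1* averaged 1.52 FPKM in XX and 32.8 FPKM in XY gonads. The myelin gene *MBP* went the other way (5.59 FPKM in XX, 3.14 FPKM in XY), and *S100B*, *GFAP* and *FOXD3* averaged under 1 FPKM in both sexes. Of 11 cartilage matrix genes tested, 2 were higher in XX and 3 higher in XY. Beside *COL9A1* those higher in XY were *MATN1* (0.0715 FPKM in XX and 1.58 FPKM in XY gonads) and *CHAD* (2.04 FPKM in XX and 4.14 FPKM in XY gonads), and *COL2A1*, the main cartilage collagen, averaged 49.5 FPKM in XX and 44.8 FPKM in XY gonads (0.10).

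Of 16 hormone receptor genes tested, 2 were higher in XX and 6 higher in XY. The share higher in XX was no larger than that over all loci. *ESR1*, an estrogen receptor, averaged 12.6 FPKM in XX and 0.914 FPKM in XY gonads (2.75 ± 0.22, adjusted p = 1e-06), and *PGR*, the progesterone receptor, 1.11 and 0.0245 FPKM. *FSHR*, the receptor for follicle-stimulating hormone, was lower in XX, at 12 FPKM against 75.6 FPKM in XY gonads (−2.53), and the prolactin receptor *PRLR* at 10.6 FPKM against 44.6 FPKM (−1.99). *AMHR2*, the receptor of anti-Müllerian hormone, did not pass the test, at 43.8 FPKM in XX and 50.6 FPKM in XY gonads. Of 19 genes of cholesterol synthesis and uptake, 6 were lower in XX and 0 higher, with a median difference of −0.32. Of 9 genes of insulin-like growth factor signalling, 2 were higher in XX and 2 higher in XY.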
